A study of Rattus norvegicus with 6 samples.

Results

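The genes described here encode the mTOR kinase, its partners and its upstream regulators. They are Mtor, Rptor, Rictor and Deptor of the mTOR complexes, the activator gene Rheb, the tuberous sclerosis complex genes Tsc1 and Tsc2, and the sestrin genes Sesn1, Sesn2 and Sesn3. They were taken by symbol from the deposited table, which held all 10 of them among 22608 gene symbols. All 10 passed the minimum level for testing, which was 1 FPKM reached in 3 or more of the 6 libraries, as did 12373 genes in all. FPKM is the number of fragments per kilobase of transcript scaled to the mapped fragments of the library.

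The samples were primary astrocytes, cultured glial cells, from rat brain. In one group of 3 libraries (BHB 1 to 3) the cells had received β-hydroxybutyrate (BHB), the main circulating ketone body. The column names give its dose as 2 mM. The other 3 libraries (control 1 to 3) carry the treatment label of controls. The sources used here give no rat strain, age, vehicle or duration of treatment. Nor do the labels tell whether a group's libraries stem from separate cultures or animals, and p-values therefore reflect the spread among these libraries alone, which can be technical. The study asks how BHB acts on astrocytes, and the comparison below asks whether it altered the transcripts of this growth control pathway.

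mTOR is a protein kinase that works in a pair of complexes. In mTOR complex 1 (mTORC1) the scaffold raptor recruits substrates that drive protein synthesis and restrain autophagy, and in mTOR complex 2 (mTORC2) rictor takes its place and the main substrates are kinases such as AKT. RHEB, a small GTPase on the lysosome, switches mTORC1 on, the TSC complex switches RHEB off, and sestrins hold mTORC1 back when leucine is scarce or cells are stressed, by acting on the GATOR complexes that control the Rag GTPases. In brain, loss of TSC1 or TSC2 causes tuberous sclerosis, in which astrocytes are among the affected cells. Much of the control in this pathway acts on proteins, through phosphorylation and location, which transcript levels do not report.

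Across the tested genes any pair of libraries had a Pearson correlation of 0.990 to 0.993, and the libraries had FPKM sums of 354565 to 367448. Read depth is unknown. Of 10 astrocyte markers all were tested, their summed level was 4569 to 4823 FPKM in controls and 4966 to 4997 FPKM in the BHB group, and 1 passed, Slc1a3, the glutamate transporter gene that the series is about, with a ratio of 2.25 (adjusted p = 1.64e-05 in limma). Without Slc1a3 the sums of the other 9 overlapped, at 4362 to 4626 and 4506 to 4544 FPKM. Of 10 fibroblast and mural cell markers 7 were tested, and their sum was 4471 to 4846 FPKM in controls and 4627 to 5007 FPKM in the BHB group. It came mostly from the contractile genes Tagln and Acta2, which cultured astrocytes can also express. The list was split beyond these. Over the 6 libraries Col1a2 was at 249 to 280, Col1a1 at 91.4 to 108 and Pdgfrb at 24.0 to 27.4 FPKM. Dcn, Lum and Vtn reached at most 0.0324, 0.234 and 0.203 FPKM. The sums of 10 markers each were 90.7 to 94.1 and 89.3 to 91.4 FPKM for neurons, 92.5 to 97.9 and 95.1 to 99.1 FPKM for oligodendrocyte lineage cells, 42.2 to 43.6 and 42.0 to 44.1 FPKM for microglia and 3.61 to 3.93 and 3.61 to 4.56 FPKM for endothelium (control and BHB), where Cldn5 and Emcn were listed at 0 in all 6 libraries. The neuron sum came mostly from Stmn2 and Tubb3 (up to 55.9 and 18.9 FPKM), while Rbfox3 reached at most 0.554 FPKM. Cnp (up to 53.1 FPKM) was the largest part of the oligodendrocyte lineage sum, where Mag reached at most 0.219 FPKM. Eng (up to 2.93 FPKM) was the largest part of the endothelial sum. Transcripts from the lists of other cell types were thus detectable. Whether those cells were present, and their part in the results, was not tested. In such bulk samples fewer cells of a type and less RNA per cell cannot be told apart.

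None of the 10 genes passed the test between BHB and control (limma, Benjamini-Hochberg adjusted over the 12373 genes tested, threshold 0.05), against a background of 0.0566% of all tested genes in either direction and 0.00808% lower with BHB. The kinase and activator genes had log2 fold changes close to 0, and so had the inhibitor genes Tsc1 and Tsc2 (0.04 and -0.03). The 3 sestrin genes and the inhibitor gene Deptor had lower means with BHB, with ratios of BHB to control between 0.867 and 0.937. The mean of Rictor was lower too, at a ratio of 0.956. At an unadjusted p under 0.05 there was 1 gene, Sesn1, where the background is 5.59%, or 2.14% in the lower direction. The groups did not overlap in 2 genes, Sesn1 and Deptor, both lower with BHB, where the background in that direction is 4.45% (10.9% in either direction). Of the 10 log2 fold changes (BHB over control) 7 were below 0 with a median of -0.04, and of all tested genes 48.5% were below 0 with a median of 0.0029. After scaling the libraries to equal FPKM sums or quantile normalization 9 of the 10 were below 0. The same steps moved the median of all tested genes to -0.0121 and -0.0036 and their share below 0 to 55.9% and 51.7%, and the 2 genes that changed side, Mtor and Rheb, had been within 0.01 of 0.

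**Figure D1:**
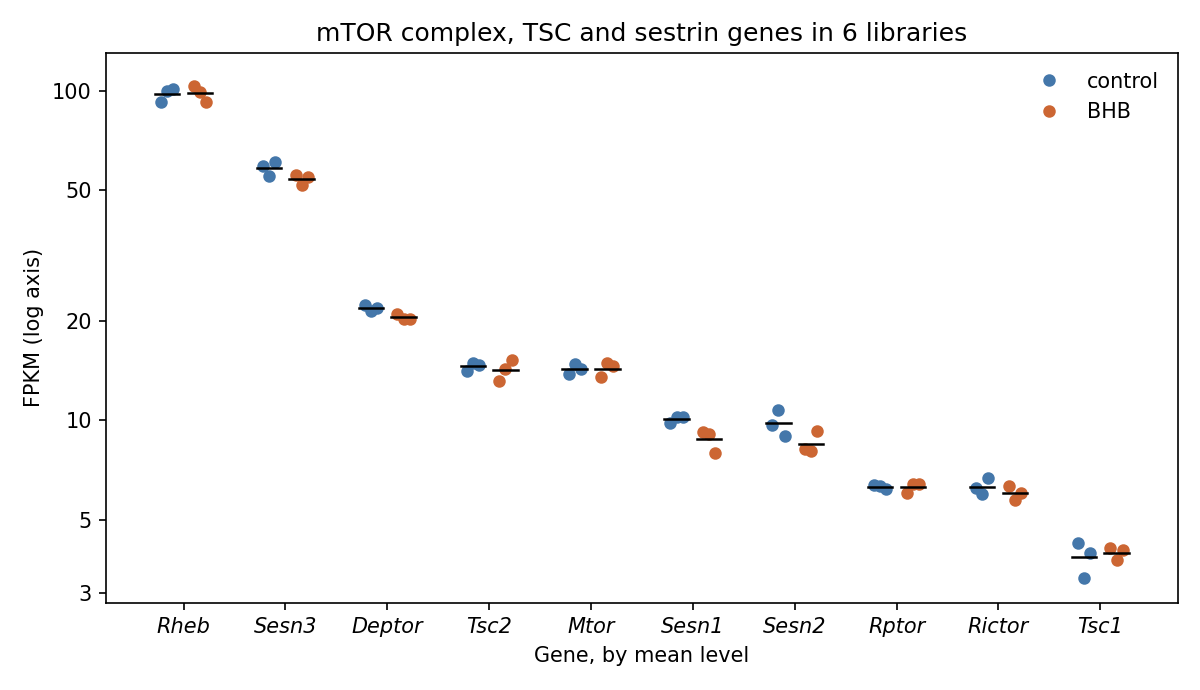
FPKM of the 10 genes in each library on a log axis, ordered by mean level, with blue points for the 3 controls, orange points for the 3 BHB libraries and a black line for each group's mean. Rheb stood highest, at 92.5 to 103.1 FPKM, Tsc1 lowest, at 3.31 to 4.24 FPKM, and only Sesn1 and Deptor have groups that do not overlap.

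The deposited FPKM of the 10 genes, a value per length, differed widely. Among all tested genes 5267 have values with at most 6 decimals and 7106 have more. Of the 10 genes only Mtor, Rheb and Sesn2 have at most 6. Whether or how the values of the other 7 were combined from transcripts is not stated. The order, ratios and shares between genes given here and below are thus of deposited values and may depend on any such step. Rheb had the highest mean over the 6 libraries, 97.9 FPKM, followed by Sesn3 at 56.2 and Deptor at 21.2 FPKM. Tsc2 (14.4 FPKM) and Mtor (14.3 FPKM) came next and were not separated, since their ranges overlapped and Tsc2 was the higher in 4 of 6 libraries. Sesn1 (9.42 FPKM) and Sesn2 (9.15 FPKM) were not separated either, nor were Rptor (6.28 FPKM) and Rictor (6.16 FPKM), each with the first of the pair higher in 4 of 6 libraries. Tsc1 stood last at 3.90 FPKM. The other neighbours in this order had ranges that did not overlap. Rheb lay at percentile 95.1 of the tested genes by mean level and Tsc1 at percentile 22.4.

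Mtor, which encodes the kinase shared by both complexes, stood at 13.8, 14.8 and 14.3 FPKM in controls 1 to 3 and at 13.5, 14.9 and 14.6 FPKM in BHB 1 to 3. Both the lowest and the highest value belonged to BHB libraries, and the control values lay between them. The group means were 14.3 ± 0.473 and 14.3 ± 0.722 FPKM (± SD, n = 3 a group). The log2 fold change of FPKM + 1, the scale of every log2 change given here, was 0.0038 (SE 0.0582, 95% interval -0.13 to 0.14, adjusted p = 0.996 in limma).

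Rptor, the gene of the mTORC1 scaffold raptor, was at 6.36, 6.30 and 6.19 FPKM in controls 1 to 3 and at 6.02, 6.39 and 6.41 FPKM in BHB 1 to 3. BHB 1 was the lowest and the other BHB libraries were the highest, so the groups overlapped. The log2 fold change was -0.0027 (95% interval -0.14 to 0.14, adjusted p = 0.997 in limma). Rictor, the defining subunit of mTORC2, was at 6.25, 5.96 and 6.68 FPKM in controls and at 6.33, 5.72 and 6.01 FPKM in the BHB group. The groups overlapped, and the log2 fold change was -0.06 (95% interval -0.21 to 0.10, adjusted p = 0.926 in limma). Leaving out 1 library moved it from -0.0894 (without control 2) to -0.0179 (without control 3).

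The 2 scaffold genes had similar deposited FPKM values in every library. The ratio of Rptor to Rictor FPKM was 1.02, 1.06 and 0.927 in controls 1 to 3 and 0.950, 1.12 and 1.07 in BHB 1 to 3. In each group 1 library had Rictor above Rptor, control 3 and BHB 1, and the group means of the ratio were 1.00 ± 0.0670 and 1.05 ± 0.0856 (± SD, n = 3 a group). These ratios are described without a test.

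Rheb, the GTPase gene whose product activates mTORC1, was at 92.6, 99.6 and 101.0 FPKM in controls and at 103.1, 98.9 and 92.5 FPKM in the BHB group. The BHB libraries held both the highest and the lowest value. The log2 fold change was 0.0064 (95% interval -0.12 to 0.13, adjusted p = 0.992 in limma). The genes of the TSC complex, which inactivates RHEB, also had overlapping groups. Tsc1 (hamartin) was at 4.24, 3.31 and 3.96 FPKM in controls and at 4.09, 3.76 and 4.05 FPKM in the BHB group, a log2 change of 0.04 (95% interval -0.16 to 0.25, adjusted p = 0.958 in limma). Tsc2 (tuberin), which carries the GTPase-activating domain, was at 14.1, 15.0 and 14.7 FPKM in controls and at 13.2, 14.3 and 15.2 FPKM in the BHB group, a log2 change of -0.03 (95% interval -0.18 to 0.11, adjusted p = 0.956 in limma). For Mtor, Rptor, Rheb, Tsc1 and Tsc2 the sign turned in at least 1 of the alternatives run.

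Tsc2 exceeded Tsc1 in all 6 libraries. The ratio of Tsc2 to Tsc1 FPKM was 3.32, 4.52 and 3.71 in controls 1 to 3 and 3.22, 3.81 and 3.76 in BHB 1 to 3. Control 2, where Tsc1 had its lowest value, had the highest ratio. Tsc1 was the most variable of the 10 genes among controls, with an SD of 12.4% of the mean, against 1.33% for Rptor. This did not hold in the BHB group, where the SD of Tsc1 was 4.54% of its mean and Sesn1 was the most variable at 8.14%.

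Sestrins are stress-inducible proteins, with Sesn1 and Sesn2 known as p53 targets, Sesn2 also as a target of ATF4, and Sesn3 as a target of FOXO factors. All 3 had lower means with BHB, and none passed. Sesn1 was at 9.79, 10.3 and 10.2 FPKM in controls 1 to 3 and at 9.24, 9.08 and 7.93 FPKM in BHB 1 to 3. Every BHB library lay below every control, and BHB 3 was the lowest. The means were 10.1 ± 0.261 and 8.75 ± 0.712 FPKM (± SD, n = 3 a group), a ratio of 0.867 and a log2 change of -0.19 (SE 0.0696, 95% interval -0.35 to -0.03). The unadjusted p was 0.0258 and the limma adjusted p 0.881, and the exact two-sided permutation p of 0.1 is the smallest that 3 against 3 can give. Without BHB 3 the log2 fold change was -0.13.

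Sesn2, the sestrin best known as a leucine sensor, was at 9.70, 10.8 and 8.96 FPKM in controls and at 8.18, 8.05 and 9.26 FPKM in the BHB group. BHB 3 lay above control 3, so the groups overlapped. The means were 9.80 ± 0.904 and 8.50 ± 0.662 FPKM (± SD, n = 3 a group), a ratio of 0.867 and a log2 change of -0.18 (SE 0.0820, 95% interval -0.37 to 0.0032, adjusted p = 0.881 in limma). Without control 2 it was -0.12. The exact two-sided permutation p was 0.2.

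Sesn3 made up most of the summed sestrin FPKM. It was at 59.1, 55.2 and 60.7 FPKM in controls and at 55.6, 51.8 and 54.6 FPKM in the BHB group, so that BHB 1 lay just above control 2. The means were 58.4 ± 2.82 and 54.0 ± 1.94 FPKM (± SD, n = 3 a group), a ratio of 0.926 and a log2 change of -0.11 (SE 0.0515, 95% interval -0.23 to 0.0090, adjusted p = 0.881 in limma, exact two-sided permutation p = 0.2).

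**Figure D2:**
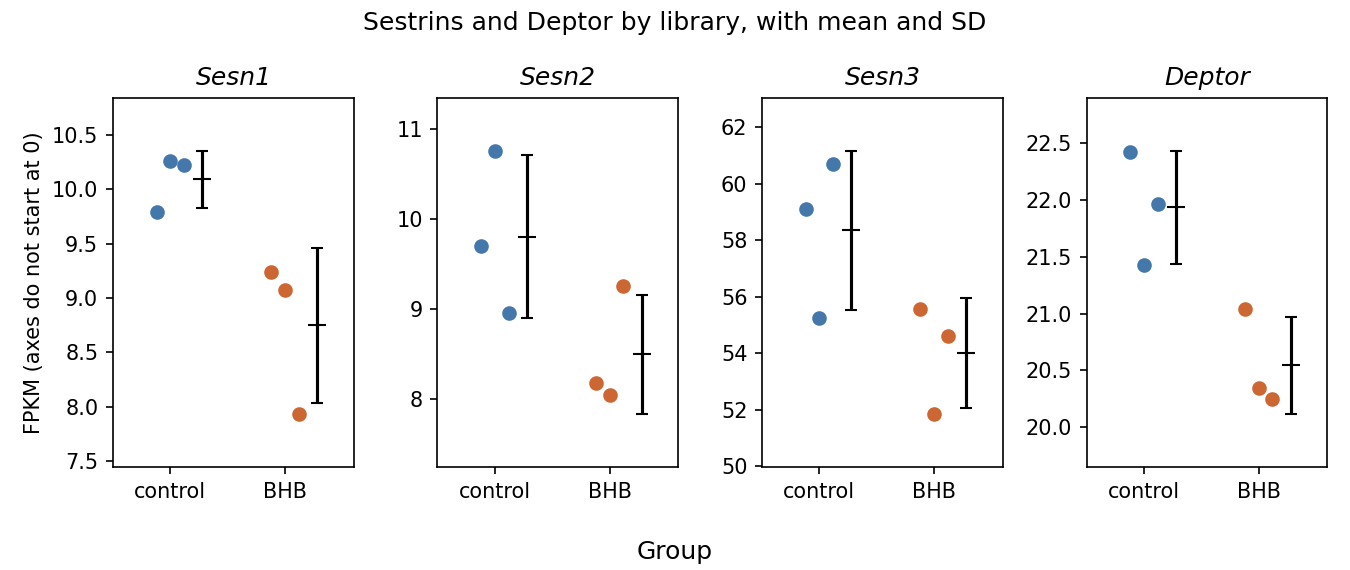
FPKM of the 3 sestrin genes and Deptor, 1 panel per gene on its own axis that does not start at 0, with points for the libraries (blue control, orange BHB) and a bar for the mean and SD of each group. In Sesn1 and Deptor all BHB points lie below all control points, and in Sesn2 and Sesn3 1 BHB library reaches into the control range.

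The summed FPKM of the 3 sestrins was 78.6, 76.3 and 79.9 in controls 1 to 3 and 73.0, 69.0 and 71.8 in BHB 1 to 3, with every BHB sum below every control sum. Since Sesn3 dominates it, this sum mostly follows Sesn3. Sesn2 and Sesn3 each overlapped between the groups, and no like sum was formed for other genes. The separation of the sums is thus not further support for a decrease. Within the sum the makeup was nearly the same in both groups. The share of Sesn3 was 74.5 ± 1.87% in controls and 75.8 ± 0.536% with BHB (± SD, n = 3 a group), that of Sesn1 12.9 ± 0.509% and 12.3 ± 1.10%, and that of Sesn2 12.6 ± 1.46% and 11.9 ± 0.870%. The lowest share of Sesn1, 11.0%, was in BHB 3. These sums and shares are described without a test.

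The sequences just before the sestrin transcription starts are shown because the means of these 3 paralogs were all lower with BHB. The means of Rptor, Rictor, Tsc2 and Deptor were lower too, so this choice followed the values and does not set the sestrins apart. The sequences are the 250 bases before the start listed by RefSeq in assembly GRCr8, at chr20:46948469-46948718 (plus strand), chr5:150005256-150005505 (minus strand) and chr8:19415177-19415426 (plus strand), each written 5′ to 3′ on the gene's strand. Capitals mark the CCAAT box (CCAAT) and the GC box (GGGCGG), searched on both strands with no overlapping matches, a pair of common promoter elements bound by NF-Y and by SP1 and its relatives.
Sesn1: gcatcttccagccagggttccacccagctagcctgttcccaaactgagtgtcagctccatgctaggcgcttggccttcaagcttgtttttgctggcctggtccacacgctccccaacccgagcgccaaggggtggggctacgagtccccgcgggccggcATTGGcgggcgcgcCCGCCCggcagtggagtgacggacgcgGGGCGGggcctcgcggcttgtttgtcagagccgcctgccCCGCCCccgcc
Sesn2: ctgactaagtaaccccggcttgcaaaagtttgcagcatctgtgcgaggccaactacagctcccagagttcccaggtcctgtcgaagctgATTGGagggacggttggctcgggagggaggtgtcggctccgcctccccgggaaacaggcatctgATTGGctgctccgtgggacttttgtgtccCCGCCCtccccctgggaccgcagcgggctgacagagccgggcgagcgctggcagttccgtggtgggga
Sesn3: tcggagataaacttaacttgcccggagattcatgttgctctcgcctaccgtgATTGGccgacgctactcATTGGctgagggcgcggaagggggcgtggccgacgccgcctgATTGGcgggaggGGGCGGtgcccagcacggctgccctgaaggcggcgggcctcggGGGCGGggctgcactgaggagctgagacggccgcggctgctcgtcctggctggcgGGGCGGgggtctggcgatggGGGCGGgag

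The Sesn1 window held 1 CCAAT box and 3 GC boxes, that of Sesn2 2 and 1, and that of Sesn3 3 and 4. Of all 33469 windows of this length in the table, 34.0% held a CCAAT box and 30.5% a GC box. Among the 10 genes 8 matched the promoter table, of which 4 had a CCAAT box (Mtor and the sestrins) and 7 a GC box (all except Tsc1). Also searched on both strands were the E-box CACGTG of MYC and TFEB, the AP-1 site TGANTCA, the cAMP response element TGACGTCA, the forkhead site GTAAACA and the CARE site TGATGNAA of ATF4 and CHOP. These were in 5.59%, 6.34%, 1.59%, 3.21% and 3.40% of all windows. Among the 8 genes the only match was an E-box before Rheb, at positions -86 to -81 from the start. The Sesn1 and Sesn3 windows were rich in G and C (69.6% and 70.8%), and that of Sesn2 had 64.0%, where the median over all windows was 51.2%. Those of Mtor, Rictor, Tsc1, Tsc2 and Rheb had 56.8%, 80.4%, 53.6%, 64.0% and 68.0%, also above that median. The shares over all windows are not matched for G and C. A match in such a window describes its letters, not binding.

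Deptor, which encodes a subunit of both complexes that inhibits the kinase, was at 22.4, 21.4 and 22.0 FPKM in controls 1 to 3 and at 21.0, 20.3 and 20.3 FPKM in BHB 1 to 3. The BHB libraries all lay below the controls. The means of 21.9 ± 0.498 and 20.5 ± 0.430 FPKM (± SD, n = 3 a group) gave a ratio of 0.937. The log2 fold change of -0.09 (SE 0.0474, 95% interval -0.20 to 0.02) did not pass (unadjusted p = 0.0925 and adjusted p = 0.890 in limma), and the exact two-sided permutation p was 0.1. Over the 14 alternatives run, the log2 fold changes of Sesn1, Sesn2, Sesn3 and Deptor, and also that of Rictor, were below 0 each time. None of these genes passed in any. All alternatives reuse the same libraries, and those of filter, trend and replicate block leave a log2 fold change as it is. For Sesn1 and Deptor, whose groups do not overlap, leaving out a library cannot turn the sign. The repeats are thus not independent support.

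**Figure D3:**
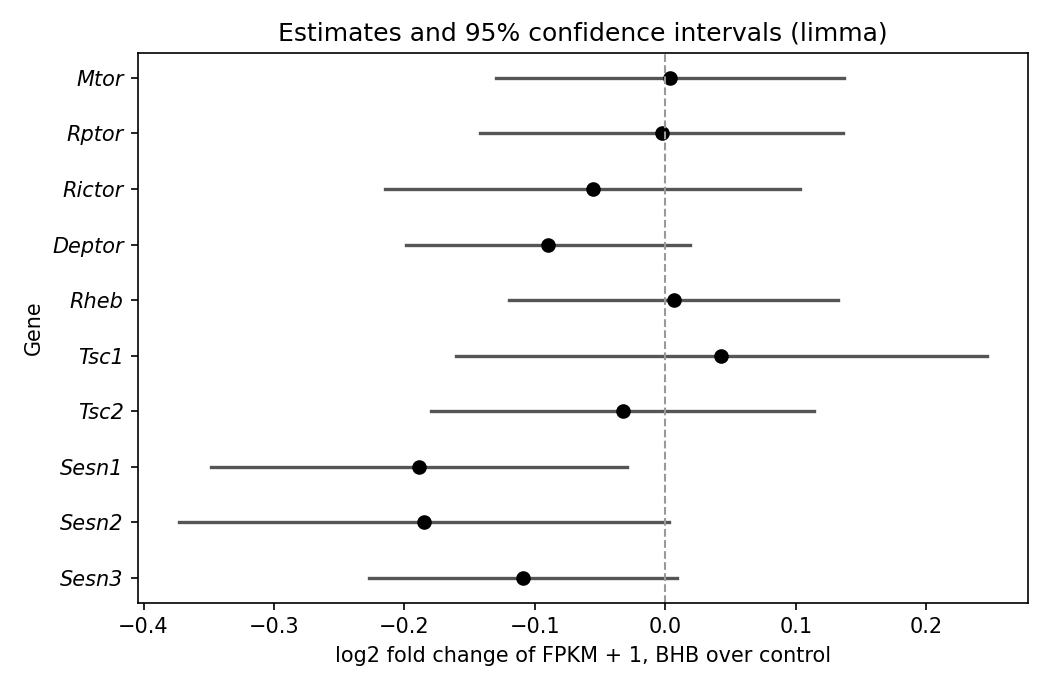
Log2 fold change of FPKM + 1 (BHB over control) for the 10 genes, with points for the limma estimates and lines for their 95% confidence intervals before any adjustment for multiple tests. Only the interval of Sesn1, -0.35 to -0.03, does not cross 0, and the intervals of Mtor, Rptor and Rheb stay within 0.15 of 0.

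The intervals set how large a change these libraries leave room for, gene by gene. For Mtor, Rptor and Rheb they reached at most 0.14 on the log2 scale in either direction. For Tsc1, the least abundant gene, the interval was the widest of those 4, at -0.16 to 0.25. For the sestrins the lower bounds were -0.35, -0.37 and -0.23.

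By the rule for genes of like pattern, Sesn1, the gene of the 10 with the largest absolute log2 fold change, was compared with the other 12372 tested genes over the 6 libraries. The highest Pearson correlations on the log2(FPKM + 1) scale were with Txndc16 (0.987), a thioredoxin domain gene, Socs7 (0.986), of the suppressor of cytokine signalling family, and Mrto4 (0.965), a ribosome assembly factor gene. All 3 were likewise lowest in BHB 3, at 7.35, 9.61 and 6.66 FPKM against control means of 8.94, 10.9 and 10.5 FPKM, and none passed the test. Over only 6 libraries 80 genes (0.647%) had a correlation of at least 0.9 with Sesn1, and these values come from the same libraries, so they are a description.

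The rest of the pathway was read from lists chosen by function, with 95 tested genes in all. None of the 95 passed in limma. At an unadjusted p under 0.05 there were 6, 4 higher and 2 lower with BHB, where the background is 5.59%, with 3.45% higher and 2.14% lower. The groups did not overlap in 8 genes higher and 4 lower with BHB. Among all 12373 tested genes these numbers were 796 and 551, or 10.9% in either direction. Rhebl1, among the lower genes at that p and among those without overlap, passed the minimum level only through the controls. Of the 95 log2 fold changes 51 were above and 44 below 0, with a median of 0.01.

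**Figure D4:**
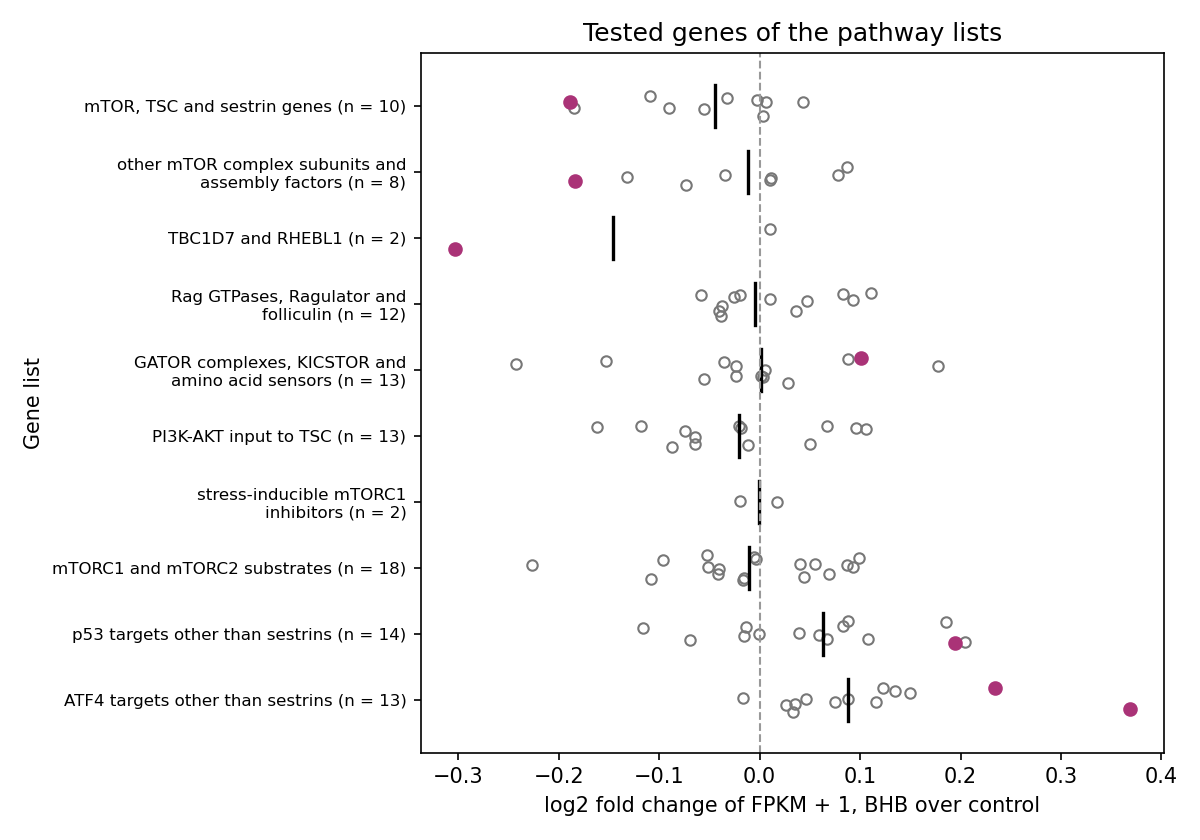
Log2 fold change of FPKM + 1 (BHB over control) of each tested gene, by list, with filled purple points for an unadjusted limma p under 0.05, open grey points for the others, a black line for each list's median, and vertical scatter added only to separate points. The medians of the mTOR complex, Rag, GATOR, AKT and substrate lists lie within 0.03 of 0, and those of the p53 and ATF4 target lists at 0.06 and 0.09. The median of the 10 genes lies at -0.04, and that of the TBC1D7 and RHEBL1 row, of only 2 genes, at -0.15.

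Other subunits and assembly factors of the mTOR complexes (8 tested, 4 above 0, median -0.01) included Akt1s1, which encodes PRAS40, an inhibitory mTORC1 subunit. It was at 20.7, 21.9 and 19.5 FPKM in controls and at 19.5, 16.7 and 18.1 FPKM in the BHB group, with BHB 1 reaching the control range. Its log2 change of -0.18 (95% interval -0.34 to -0.02) did not pass (unadjusted p = 0.0296 and adjusted p = 0.881 in limma). Mlst8, the subunit common to both complexes, named here after its values were seen, varied most between libraries, at 3.94, 7.95 and 6.73 FPKM in controls and 7.06, 6.88 and 3.09 FPKM in the BHB group. The 2 low libraries, control 1 and BHB 3, are in different groups.

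Of the partners of TSC and RHEB, Tbc1d7, the third subunit of the TSC complex, was at 6.06 ± 0.748 FPKM in controls and 6.10 ± 0.349 FPKM in the BHB group (± SD, n = 3 a group). Rhebl1, a RHEB relative, was at 1.45, 1.51 and 1.12 FPKM in controls and at 0.897, 0.853 and 0.978 FPKM in the BHB group. It reached 1 FPKM in the 3 controls and in no BHB library. It thus passed the minimum level only through the group where it is high. Its separation and p-value are therefore no support for a change. The groups did not overlap, with BHB lower, as in 4.45% of all tested genes. The log2 change of -0.30 (95% interval -0.52 to -0.08) did not pass (unadjusted p = 0.0126 and adjusted p = 0.881 in limma). At these levels the log2(FPKM + 1) scale understates changes, and the value was -0.53 with a pseudocount of 0.1. Rhebl1 was far less abundant than Rheb, so its share of their sum was small in every library.

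The Rag GTPases, Ragulator and folliculin genes (12 tested, 6 above 0, median -0.0047), which place mTORC1 at the lysosome, had no gene at an unadjusted p under 0.05. Lamtor1, the Ragulator anchor and the most abundant of them, stood at 73.7 ± 3.66 and 74.4 ± 6.56 FPKM (± SD, n = 3 a group). Of the GATOR, KICSTOR and amino acid sensor genes (13 tested, 7 above 0, median 0.0011), on which sestrins act, Sec13 had a log2 change of 0.10 (unadjusted p = 0.0341 and adjusted p = 0.881 in limma). It was at 54.5, 56.5 and 55.3 FPKM in controls and at 59.5, 58.9 and 60.0 FPKM in the BHB group, without overlap. Of all 12373 tested genes 796 had every BHB library above every control. SEC13 also belongs to the COPII vesicle coat and the nuclear pore.

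Genes of the PI3K and AKT input to TSC (13 tested, 4 above 0, median -0.02) had none at an unadjusted p under 0.05. Akt1 was at 50.5 ± 0.183 FPKM in controls and 54.5 ± 3.87 FPKM in the BHB group (± SD, n = 3 a group), with a log2 change of 0.11 (adjusted p = 0.890 in limma) that was 0.06 without BHB 2 and 0.16 without BHB 1. Among the stress-inducible inhibitors 2 of 3 were tested, and Ddit4 (REDD1) stood at 34.9 ± 2.42 and 35.3 ± 2.71 FPKM (± SD, n = 3 a group). The substrates of both complexes (18 tested, 7 above 0, median -0.01) had none at an unadjusted p under 0.05 either, and Rps6, the ribosomal protein phosphorylated downstream of mTORC1, stood at 279.9 ± 10.03 and 272.0 ± 4.55 FPKM (± SD, n = 3 a group).

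Other targets of p53 and ATF4, regulators of sestrin genes, had medians above 0, and none passed. The p53 targets (14 tested, 9 above 0) had a median log2 fold change of 0.06, with 1 higher at an unadjusted p under 0.05. Of all tested genes 51.5% were above 0 and 3.45% were higher at that p. The cell cycle regulator gene Ccng1, the most abundant, stood at 92.0 ± 5.23 and 91.0 ± 5.37 FPKM (± SD, n = 3 a group). Btg2, an antiproliferative gene that is also an immediate early gene, was at 19.1 ± 1.13 and 22.0 ± 0.207 FPKM (± SD, n = 3 a group), with a log2 change of 0.19 (unadjusted p = 0.0078 and adjusted p = 0.881 in limma).

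The ATF4 targets had 12 of 13 tested genes above 0 and a median of 0.09, with 2 higher at an unadjusted p under 0.05, beside the same 51.5% and 3.45% of all tested genes. Atf3, a stress-induced transcription factor gene, was at 6.01 ± 1.12 and 7.98 ± 0.597 FPKM (± SD, n = 3 a group), a log2 change of 0.37 (unadjusted p = 0.0127 and adjusted p = 0.881 in limma). Cebpb, another transcription factor gene, was at 10.8 ± 0.545 and 12.9 ± 1.37 FPKM (± SD, n = 3 a group), a log2 change of 0.23 (unadjusted p = 0.0183 and adjusted p = 0.881 in limma). In both genes the groups did not overlap, with BHB higher, as in 796 of all 12373 tested genes. The most abundant ATF4 target was Slc3a2, the heavy chain of leucine transporters, at 145.9 ± 5.76 and 163.0 ± 24.4 FPKM (± SD, n = 3 a group), a log2 change of 0.15 that was 0.03 without BHB 2. The difference between these lists and the sestrins was not tested.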

How the data were processed

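RNA of 3 control and 3 BHB-treated rat primary astrocyte samples was measured as poly(A) RNA sequencing libraries. Per the labels' protocols, a column kit, oligo-dT beads and the Illumina TruSeq kit were used. FPKM values of 22608 gene symbols were deposited by the authors in 1 table. The submitters' processing notes name bcl2fastq 2.0, HISAT2, StringTie and DESeq2 as tools and rn6 as the build, without their roles or settings. For annotation and strand setting nothing is given in the sources used here. Mtor, Rheb and Sesn2 have at most 6 decimals in the deposited table. The other 7 genes have more, and whether or how their values were combined from transcripts is not stated.

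Genes that reached 1 FPKM in 3 or more of 6 libraries were tested on log2(FPKM + 1) with limma 3.58.1 in R 4.3.3 (lmFit, eBayes with an intensity trend), two-sided, with Benjamini-Hochberg adjustment over all 12373 genes and a threshold of 0.05. This scale understates changes of low genes. FPKM values are not counts and depth is unknown, so no count test was run. Exact permutation tests used the log2 values. The 10 genes and the pathway lists were chosen with earlier results of these data known, so no list test was run. Of 102 pathway symbols 99 were found in the table, 3 of them (Kics2, Castor1 and Castor2) under older names, and 95 were tested. Genes outside the 10 were named by rule, as the most abundant of a list and up to 3 with the smallest unadjusted p under 0.05. Alternatives covered the pseudocount, filter, scaling, trend, weights, replicate block and leaving out each library.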

Additional observations from a re-analysis of the deposited data

How the results depend on the processing

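None of the 10 genes passed under any of the 14 alternatives run, where their limma adjusted p-values ran upward from 0.685. Of 140 values of the 10 genes 125 kept their sign and their side of the threshold and 15 turned sign, as did 12 of 237 values of other named genes. The filter, trend and replicate block settings leave a log2 fold change as it is, so part of these values could not turn. Scaling to equal FPKM sums gave a median over the 10 genes of -0.0595, and turned Mtor (-0.0120), Rheb (-0.0104), Tbc1d7 (-0.0036) and Lamtor1 (-0.0063). Quantile normalization turned Mtor (-0.0045) and Rheb (-0.0057), and array weights turned Rptor (0.0041), Rheb (-0.0018) and Tbc1d7 (-0.0231). The median of all genes moved by less than 0.02 under either scaling. Over all genes, 7 were called, 4 without the eBayes trend and 2 with the replicate block, for which the cause was not tested. Same-numbered libraries did not deviate together from their group means (r = -0.0899, 0.164 and -0.151), so the numbers gave no pairs. Leaving out a library gave 5 to 10 genes called and a median over the 10 genes of -0.0668 (without BHB 3) to -0.0229 (without control 3). The log2 changes then ran from -0.0215 to 0.0430 for Mtor, -0.0166 to 0.0232 for Rptor, -0.0316 to 0.0484 for Rheb, -0.0374 to 0.104 for Tsc1, -0.0787 to 0.0180 for Tsc2, -0.0805 to 0.0589 for Tbc1d7, -0.0510 to 0.0750 for Lamtor1, -0.0308 to 0.0764 for Ddit4 and -0.0632 to 0.0283 for Ccng1. Unknown depth and 3 libraries a group limit what can be seen of differences as small as these.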
